A study of Mus musculus with 68 samples.

Results

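The collagen genes are the loci that encode the triple-helical proteins of the extracellular matrix. They were taken as every row of the deposited expression table whose symbol is Col, a number, a and a number, which gave 44 of 23356 rows. Mouse intestine and intestinal tumours were profiled by RNA sequencing to ask how loss of Cftr, the epithelial chloride and bicarbonate channel mutated in cystic fibrosis, bears on tumour formation in mice with wildtype Apc and in ApcMin mice, which carry a germline Apc mutation and develop intestinal adenomas. The table held 68 libraries from 23 specimens in 12 groups, in FPKM, a fragment count scaled by transcript length and by library size. Each specimen was sequenced on several lanes, and its columns were averaged to 1 value. All mice were C57BL/6 and 3 months old.

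The tumour groups were 2 ApcMin Cftr knockout (KO) colon tumours, 2 ApcMin Cftr wildtype (WT) colon tumours, 2 colon tumours of an ApcMin mouse heterozygous for Cftr (Het, called a knockdown in the labels), 1 Apc wildtype Cftr KO colon tumour, 2 ApcMin Cftr KO ileum tumours, 2 ApcMin Cftr WT ileum tumours, 2 Apc wildtype Cftr KO duodenal tumours and 2 ApcMin Cftr Het duodenal tumours. The normal groups were 2 specimens each of Cftr KO duodenum, Cftr KO colon, Cftr WT duodenum and Cftr WT colon, all with wildtype Apc. There was no normal ileum, so where ileum tumours are set beside normal duodenum, tumour and gut segment cannot be told apart. The Apc wildtype Cftr KO mice were Cftr fl/fl with Cre under the Villin promoter, which is active in intestinal epithelium and not in the stromal cells that make most collagen. The Cftr alleles of the ApcMin mice were not given in the sources used here. The specimens came from 10 animal numbers. In ApcMin mice both tumours of a genotype and organ came from 1 animal, so genotype and animal cannot be told apart. The ileum and colon tumours of ApcMin WT came from 1 mouse, as did those of ApcMin KO, and the KO colon tumour shared its animal with KO duodenal tumour 2. The normal duodena and colons of a genotype came from the same 2 mice, and the 2 KO duodenal tumours came from different mice. Every p-value below measures a spread between specimens that is pooled over groups. That spread is between mice in some groups and within 1 mouse in each ApcMin pair, so it is not a spread between mice alone. Below, ApcMin groups are named ApcMin KO, ApcMin WT and ApcMin Het after their Cftr genotype, and Apc wildtype groups KO and WT. The labels called the colon specimens whole tissue and the duodenal ones epithelium, whereas the series' design text gave colon epithelial cells and duodenum without villi.

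Collagen chains assemble in threes into a triple helix, and the family is divided by what the trimers build. Types I, III and V form the fibrils that give the submucosa and lamina propria their tensile strength, and are made mainly by fibroblasts. Type IV forms the sheet-like network of basement membranes under epithelium and around vessels and muscle, where types XV, XVIII and VII add proteoglycan and anchoring functions. Type VI forms beaded microfilaments, the fibril-associated collagens with interrupted triple helices (FACITs) coat fibril surfaces, types VIII and X form short-chain networks, and types XIII, XVII and XXIII span the plasma membrane. In gut tumours the stroma and the basement membrane are remodelled, and collagen expression is widely used as a readout of that remodelling.

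Promoter sequences are shown for the type IV gene pairs and for Col18a1, because the members of each pair shared their direction wherever both were called, Col4a1 with Col4a2 and Col4a5 with Col4a6, and because Col18a1 was higher in tumours in every tumour comparison with normal tissue. Sequences are from RefSeq on GRCm38.p6, each the 250 bases before the annotated start, read 5′ to 3′ on the gene's own strand. Of the 44 members, 35 had a promoter in the RefSeq table, with 38 promoters in all. Col18a1 had 2 of them. The more upstream is printed, and the other, chr10:77113706-77113955, was 57.6% G and C and held neither motif below. Capitals mark CCAAT (or ATTGG), the box bound by NF-Y, and GGGCGG (or CCGCCC), the GC box bound by Sp1.
Col4a1, chr8:11312827-11313076, minus strand: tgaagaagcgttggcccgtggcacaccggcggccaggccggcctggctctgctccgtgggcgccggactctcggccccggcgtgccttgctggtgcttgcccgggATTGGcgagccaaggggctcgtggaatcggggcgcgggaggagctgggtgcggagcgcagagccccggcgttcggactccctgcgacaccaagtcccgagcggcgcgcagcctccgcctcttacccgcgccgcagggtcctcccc
Col4a2, chr8:11312555-11312804, plus strand: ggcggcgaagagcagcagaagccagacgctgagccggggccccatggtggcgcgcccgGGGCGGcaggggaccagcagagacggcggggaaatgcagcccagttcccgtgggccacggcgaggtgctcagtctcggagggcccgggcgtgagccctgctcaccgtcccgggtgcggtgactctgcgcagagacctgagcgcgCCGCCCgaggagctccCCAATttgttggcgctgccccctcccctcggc
Col4a5, chrX:141475169-141475418, plus strand: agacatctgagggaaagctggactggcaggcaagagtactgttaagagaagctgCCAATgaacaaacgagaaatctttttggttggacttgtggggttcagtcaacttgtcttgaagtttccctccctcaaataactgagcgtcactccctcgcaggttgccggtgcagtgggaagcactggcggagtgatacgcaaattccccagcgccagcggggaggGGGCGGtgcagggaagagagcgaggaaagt
Col4a6, chrX:141474077-141474326, minus strand: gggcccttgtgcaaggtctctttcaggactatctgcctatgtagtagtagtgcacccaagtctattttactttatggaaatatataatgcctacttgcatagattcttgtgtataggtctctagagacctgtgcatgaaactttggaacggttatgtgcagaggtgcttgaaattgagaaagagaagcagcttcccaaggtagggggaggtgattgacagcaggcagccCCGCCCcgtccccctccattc
Col18a1, chr10:77166531-77166780, minus strand: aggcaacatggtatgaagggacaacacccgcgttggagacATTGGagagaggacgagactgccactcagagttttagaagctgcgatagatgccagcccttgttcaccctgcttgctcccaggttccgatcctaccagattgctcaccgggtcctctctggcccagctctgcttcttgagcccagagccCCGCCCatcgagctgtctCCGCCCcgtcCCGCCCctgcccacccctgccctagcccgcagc

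Col4a1 and Col4a2 lie head to head on chromosome 8 with starts 21 bases apart, so that the window before each start runs into the other gene. Col4a5 and Col4a6 lie head to head on the X chromosome with starts 1343 bases apart. The Col4a1 and Col4a2 windows were 74.4% and 73.6% G and C, Col18a1 62.0%, Col4a5 54.0% and Col4a6 47.6%. CCAAT in either direction was found in 13 of the 38 member promoters, and in 33.8% of all 32851 promoters in the table. GGGCGG in either direction was found in 22 of the 38 and in 32.7% of all promoters. TATAAA, also searched on both strands, was found in 5 and 12.4% of all promoters, and in none of the sequences printed. CTTTGAT, the core recognised by TCF/LEF factors of the Wnt pathway, was found in 1 member, Col9a2, and in 3.21% of all promoters. These are matches of letters and were not tested as binding sites.

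Of the 44 collagens, 29 reached 1 FPKM in at least 2 specimens and were tested among 14098 genes. The 15 that did not were Col2a1, Col4a3, Col4a4, Col6a5, Col6a6, Col9a1, Col10a1, Col11a1, Col19a1, Col20a1, Col22a1, Col24a1, Col25a1, Col26a1 and Col28a1, and 7 of these were listed at 0 in at least 1 specimen. The cartilage collagens Col2a1, Col10a1 and Col11a1 were among them. Just outside the filter, Col6a5 reached 1.14 FPKM and Col28a1 1.24 FPKM, each in the KO colon tumour alone. Just inside it, Col11a2 and Col17a1 passed 1 FPKM in 2 specimens each, at up to 1.06 and 1.34 FPKM. Col8a2 reached 1 FPKM only in the 8 normal specimens and Col4a6 only in the 4 normal colons. Col7a1 and Col17a1 did so only in colon tumours. Col8a2, Col4a6, Col7a1 and Col17a1 thus passed the filter only through specimens where they were high. Their differences from the other specimens are not independent of the filter.

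Summed over all 44 genes, collagen transcripts stood at 426 to 1007 FPKM in the 7 colon tumours, 309 to 469.6 in the 4 ileum tumours and 204 to 397 in the 4 duodenal tumours, against 384 to 500 in the 4 normal colons and 188 to 266 in the 4 normal duodena. Normal colon lay above normal duodenum without overlap. The highest sum was that of the KO colon tumour, and all other colon tumours lay within 426 to 519.9 FPKM. Fewer cells of a type and less RNA per cell cannot be told apart in such bulk samples. Fibrillar chains summed to 211 to 650.5 FPKM in colon tumours, 136 to 221 in ileum tumours and 87.1 to 187 in duodenal tumours, against 214 to 277 in colon and 83.8 to 105 in duodenum. Tumour and normal colon therefore overlapped in fibrillar collagen. They did not overlap in type IV collagen, with 74.3 to 152 FPKM in colon tumours and 47 to 63.1 in normal colon, nor in the sum of types XV, XVIII and VII, with 39.9 to 63.9 in colon tumours and 14.4 to 17.6 in normal colon. Type VI and short-chain collagens lay the other way. Type VI summed to 45.6 to 89.1 FPKM in colon tumours against 82.5 to 103 in normal colon, where the ranges overlapped, and the short-chain genes to 1.11 to 4.88 FPKM in colon tumours against 7.23 to 12.3 in normal colon, where they did not.

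**Figure D1:**
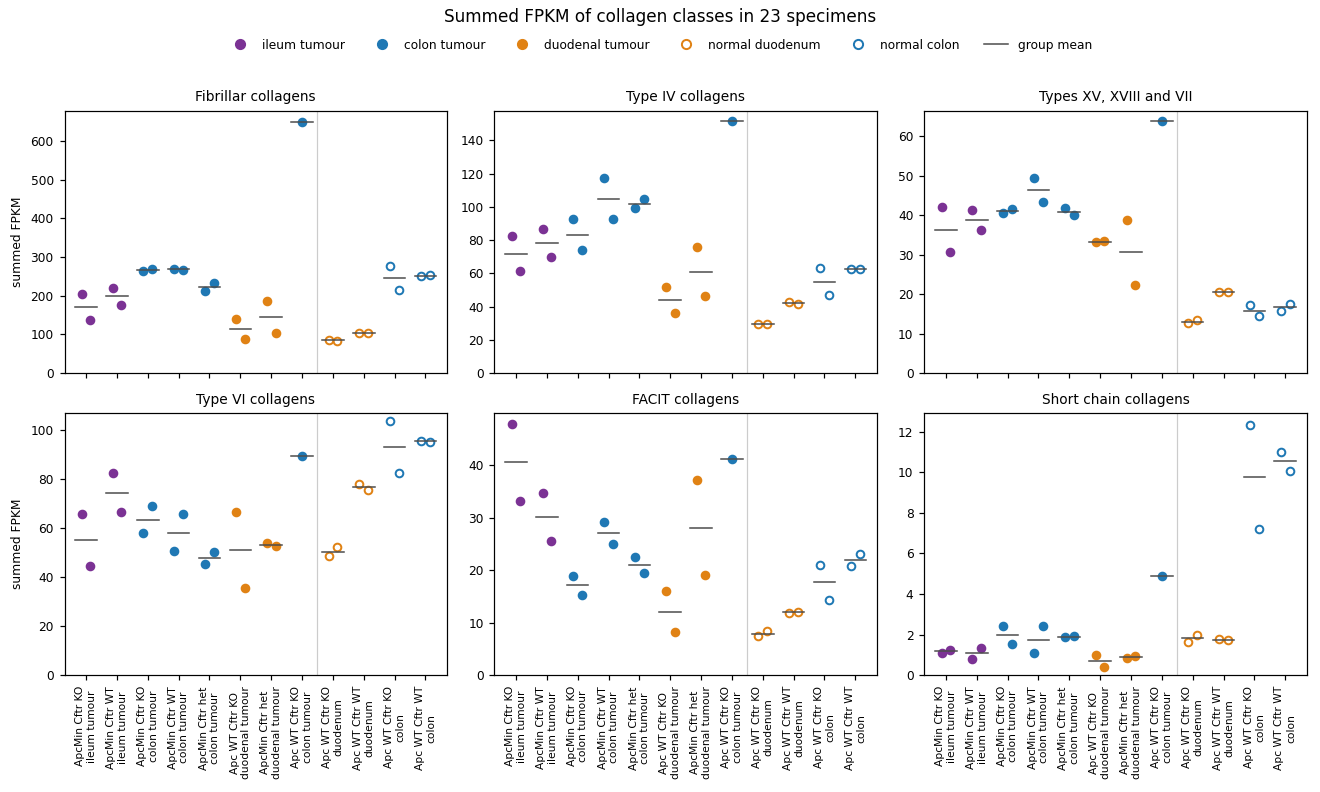
Summed FPKM of each collagen class in every specimen, tumour groups on the left and normal groups on the right, with filled points for tumours, open points for normal tissue and a bar at the group mean. The sum of types XV, XVIII and VII was 39.9 to 63.9 FPKM in colon tumours and 14.4 to 17.6 FPKM in normal colon, while fibrillar sums overlapped between them.

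The balance between chains of 1 trimer was steadier than their level. Col4a1 was 1.37 to 1.67 times Col4a2 in FPKM across the 23 specimens, and Col6a1 was 1.1 to 1.3 times Col6a2. These ratios compare levels per length, since FPKM is scaled by transcript length. The ratio of Col1a1 to Col1a2, whose products share the type I trimer, was 0.796 to 1.12 in colon tumours, 1.09 to 1.27 in ileum tumours and 0.862 to 1.27 in duodenal tumours, against 0.723 to 0.748 in colon and 0.8 to 0.882 in duodenum. Colon tumours and normal colon did not overlap in it. Col3a1 exceeded Col1a1 in every specimen, by 1.62 to 3.11 times in colon tumours and 3.17 to 3.34 times in normal colon. Type IV as a share of fibrillar FPKM was 23.3 to 47% in colon tumours against 22 to 25% in normal colon, where the Apc wildtype tumour was the one within the normal range.

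As checks on the whole series, column sums were 476233 to 801309 FPKM and read depth is unknown from these units. Cftr was present in every specimen, at 9.58 to 77.2 FPKM, and was called in none of the 13 comparisons below (limma, smallest adjusted p = 0.0647), so the transcript level does not mark the knockout specimens. The WT duodenal pair differed about as much as its own lanes did, with a ratio of 0.911 in run 1 and 1.10 in run 2. It was counted as 1 sample in the main tests, while the ranges and values show each specimen. Xist, which female cells transcribe from their silenced X, was at 24.0 to 55.6 FPKM in the 12 ApcMin tumours and 34.2 FPKM in KO duodenal tumour 1, and at 0.0212 to 0.461 FPKM in the other 10 specimens. Every comparison of ApcMin tumours with normal tissue is thus also a comparison of specimens with and without Xist. Epithelial markers (10 genes, keratins, Epcam, villin and others) summed to 6293 to 11979 FPKM in colon tumours, 9210.1 to 10646 in ileum tumours and 10161.5 to 14086 in duodenal tumours, against 8005 to 11430.4 in normal colon and 8220.2 to 9991 in normal duodenum. Duodenal tumours thus lay above normal duodenum in them. Smooth muscle markers (10 genes, Acta2, Myh11, Des and others) summed to 127 to 1319, 595 to 707 and 133 to 653 FPKM in colon, ileum and duodenal tumours, against 2428 to 3064 in normal colon and 831 to 898 in normal duodenum. Normal colon thus held muscle transcripts, whichever description of its dissection is right. Fibroblast markers (12 genes, Pdgfra, Dcn, Lum and others) summed to 314 to 847, 249 to 339.8 and 154 to 269.6 FPKM in the same tumours, against 405 to 520.3 and 209 to 243 in normal colon and duodenum. None of the fibroblast, smooth muscle or epithelial markers was at 0 in any specimen.

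**Figure D2:**
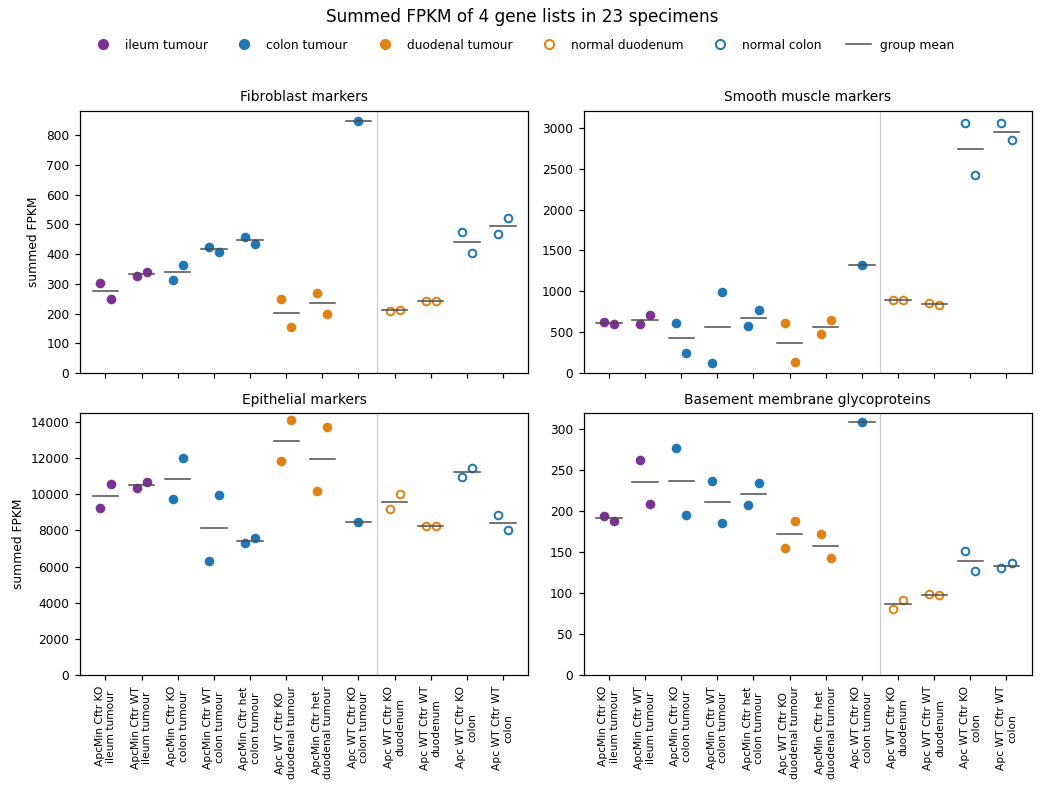
Summed FPKM of fibroblast, smooth muscle and epithelial markers and of basement membrane glycoproteins in every specimen, tumours filled and on the left, normal tissue open and on the right, bar at the group mean. Smooth muscle sums were 127 to 1319 FPKM in colon tumours and 2428 to 3064 FPKM in normal colon.

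Among basement membrane collagens, Col18a1, the chain of a heparan sulphate-bearing collagen whose end fragment is endostatin, was the most evenly raised in tumours. It was at 31.4 and 33.8 FPKM in ApcMin KO colon tumours, 39.8 and 36 in ApcMin WT colon tumours, 36.2 and 33.7 in ApcMin Het colon tumours and 47.4 in the KO colon tumour, against 10.6 and 8.81 in KO colon and 8.38 and 9.18 in WT colon. In the small intestine it was at 35 and 25 FPKM in ApcMin KO ileum tumours, 35.5 and 30.9 in ApcMin WT ileum tumours, 27.9 and 27.5 in KO duodenal tumours and 31.7 and 17.3 in ApcMin Het duodenal tumours, against 8.28 and 9.12 in KO duodenum and 14.6 and 14.8 in WT duodenum. The lowest tumour lay above the highest normal specimen. Its relative Col15a1, of the basement membrane zone of muscle and capillaries, showed no such gap, with 8.29 and 7.36 FPKM in ApcMin KO, 8.83 and 6.76 in ApcMin WT, 4.44 and 4.93 in ApcMin Het and 13.4 in KO colon tumours, against 6.51 and 5.53 in KO and 7.3 and 8.25 in WT colon. Small intestinal Col15a1 was 6.65 and 5.19 FPKM in ApcMin KO ileum tumours, 5.23 and 4.89 in ApcMin WT ileum tumours, 5.15 and 5.43 in KO and 6.69 and 4.64 in ApcMin Het duodenal tumours, against 3.84 and 3.83 in KO and 5.55 and 5.36 in WT duodenum. The ratio of Col18a1 to Col15a1 was 3.53 to 8.16 in colon tumours and 1.11 to 1.62 in normal colon. Col18a1 shares 8825 bases with Slc19a1, a folate carrier gene on the opposite strand, and the strand setting of the libraries was not given in the sources used here, so reads there cannot be told apart. Slc19a1 itself was called in none of the comparisons in which Col18a1 was. Its log2 differences there were all positive, from 0.0051 for KO duodenal tumours to 0.54 for ApcMin WT colon tumours. Its part in the Col18a1 values was not tested.

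Col7a1, which forms anchoring fibrils, was low throughout. It passed the filter only through the KO and both ApcMin Het colon tumours, so its calls there are not independent of the filter. It was at 0.926 and 0.416 FPKM in ApcMin KO, 0.817 and 0.487 in ApcMin WT, 1.03 and 1.34 in ApcMin Het and 3.13 in KO colon tumours, against 0.096 and 0.105 in KO and 0.106 and 0.177 in WT colon. All 7 colon tumours lay above all 4 normal colons. In ileum and duodenum it was at 0.426 and 0.42 FPKM in ApcMin KO and 0.56 and 0.523 in ApcMin WT ileum tumours and 0.27 and 0.393 and 0.488 and 0.34 in KO and ApcMin Het duodenal tumours, against 0.43 and 0.394 in KO and 0.356 and 0.384 in WT duodenum, where tumours and normal tissue overlapped.

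The main type IV chains were higher in colon tumours than in colon. Col4a1 was at 56.3 and 44.5 FPKM in ApcMin KO, 72.2 and 55.5 in ApcMin WT, 59.7 and 63.9 in ApcMin Het and 89.3 in KO colon tumours, against 32.7 and 25.2 in KO and 33.6 and 33 in WT colon. It was at 50.8 and 37 FPKM in ApcMin KO ileum tumours, 51.8 and 42.6 in ApcMin WT ileum tumours, 30.6 and 21.1 in KO duodenal tumours and 46.1 and 27.3 in ApcMin Het duodenal tumours, against 16.2 and 16.5 in KO and 24.2 and 23.1 in WT duodenum. Colon tumours and colon did not overlap, while duodenal tumours and duodenum did. Col4a2, its partner in the trimer, was at 34.3 and 26.7 FPKM in ApcMin KO, 44.5 and 35.6 in ApcMin WT, 38.8 and 39.97 in ApcMin Het and 60.6 in KO colon tumours, against 23.6 and 16.2 in KO and 22.7 and 23.3 in WT colon. Among small intestinal specimens Col4a2 was at 30.7 and 23.4 FPKM in ApcMin KO ileum tumours, 33.2 and 26.1 in ApcMin WT ileum tumours, 19.96 and 14.2 in KO duodenal tumours and 28.7 and 17.8 in ApcMin Het duodenal tumours, against 11.8 and 11.5 in KO and 16.4 and 16.2 in WT duodenum. The minor chains went the other way. Col4a5 and Col4a6, which share a network in basement membranes of smooth muscle among others, were at 0.52 to 2.35 and 0.0471 to 0.641 FPKM in the 7 colon tumours, against 4.08 to 4.80 and 1.43 to 1.79 FPKM in the 4 normal colons.

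Fibrillar collagens were the most abundant. Col3a1, the type III chain of distensible organs, was at 130.3 and 139.6 FPKM in ApcMin KO, 106 and 123 in ApcMin WT, 90.1 and 104 in ApcMin Het and 308 in KO colon tumours, against 146 and 111 in KO and 131 and 131 in WT colon. It was at 81.2 and 56.7 FPKM in ApcMin KO and 88.1 and 71.7 in ApcMin WT ileum tumours and 62.3 and 35.8 and 74.4 and 46.9 in KO and ApcMin Het duodenal tumours, against 41.3 and 41 in KO and 53.9 and 52.4 in WT duodenum. The Apc wildtype colon tumour stood far above all others, and the ApcMin colon tumours lay around the level of normal colon. Col1a1, the more abundant type I chain in the protein, was at 48.5 and 44.9 FPKM in ApcMin KO, 65.5 and 56.1 in ApcMin WT, 44.4 and 47.1 in ApcMin Het and 138 in KO colon tumours, against 43.6 and 35.1 in KO and 41.4 and 41 in WT colon. In ileal and duodenal specimens Col1a1 was at 53.1 and 33.1 FPKM in ApcMin KO ileum tumours, 59.7 and 43.5 in ApcMin WT ileum tumours, 29.7 and 20.6 in KO and 50.1 and 20.7 in ApcMin Het duodenal tumours, against 16.2 and 16 in KO and 17.6 and 17 in WT duodenum. All small intestinal tumours lay above all normal duodena in Col1a1.

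Col1a2 was at 55.4 and 56.4 FPKM in ApcMin KO, 58.7 and 57.7 in ApcMin WT, 44.3 and 45.5 in ApcMin Het and 136 in KO colon tumours, against 60.3 and 47.7 in KO and 55.3 and 55.6 in WT colon. Along the small intestine it was at 44.3 and 30.4 FPKM in ApcMin KO ileum tumours, 47 and 39.9 in ApcMin WT ileum tumours, 30.4 and 20.3 in KO and 39.6 and 24 in ApcMin Het duodenal tumours, against 18.9 and 18.2 in KO and 21.5 and 21.3 in WT duodenum. Unlike Col1a1, it overlapped between colon tumours and normal colon and between duodenal tumours and duodenum. The type V chains start and thin fibrils. Col5a1 was at 9.78 and 9.5 FPKM in ApcMin KO, 9.71 and 9.12 in ApcMin WT, 7.45 and 9.17 in ApcMin Het and 18.6 in KO colon tumours, against 9.5 and 6.64 in KO and 8 and 8.46 in WT colon. For the small intestine, it was at 7.53 and 4.76 in ApcMin KO ileum tumours, 7.33 and 5.7 in ApcMin WT ileum tumours, 4.83 and 3.43 in KO and 6.62 and 3.66 in ApcMin Het duodenal tumours, against 2.86 and 3.03 in KO and 3.99 and 4.09 in WT duodenum. Its partner chain was shifted further towards tumours. Col5a2 was at 16.1 and 14 FPKM in ApcMin KO, 22.7 and 17.8 in ApcMin WT, 19.8 and 21.1 in ApcMin Het and 40.4 in KO colon tumours, against 13.9 and 10.03 in KO and 11.7 and 11.8 in WT colon. In the small intestine it was at 14 and 8.32 in ApcMin KO ileum tumours, 14.6 and 12.2 in ApcMin WT ileum tumours, 9.23 and 5.69 in KO and 12.4 and 5.96 in ApcMin Het duodenal tumours, against 3.49 and 3.67 in KO and 4.48 and 4.42 in WT duodenum. The ratio of Col5a2 to Col5a1 was 1.47 to 2.65 in colon tumours against 1.4 to 1.51 in colon, and 1.63 to 1.91 in duodenal tumours against 1.08 to 1.22 in duodenum.

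The main type VI chains Col6a1 and Col6a2 were higher in normal colon than in the ApcMin colon tumours, while Col6a4 lay at 1.27 to 4.45 FPKM in the 7 colon tumours and 1.78 to 3.20 in normal colon. Col6a1 was at 26.7 and 31.6 FPKM in ApcMin KO, 21.5 and 28.4 in ApcMin WT, 21.6 and 23.5 in ApcMin Het and 40.4 in KO colon tumours, against 48.3 and 39.4 in KO and 46.1 and 45.1 in WT colon. In ileum and duodenum it was at 28.6 and 19.96 in ApcMin KO ileum tumours, 35.4 and 28.8 in ApcMin WT ileum tumours, 28.8 and 15.1 in KO and 22.7 and 22.7 in ApcMin Het duodenal tumours, against 22 and 23.4 in KO and 33.8 and 32.4 in WT duodenum. All ApcMin colon tumours lay below normal colon in Col6a1. Col6a2 was at 22.1 and 26.7 FPKM in ApcMin KO, 17.1 and 25 in ApcMin WT, 18.1 and 21.1 in ApcMin Het and 33.7 in KO colon tumours, against 40.1 and 35.3 in KO and 38.5 and 38.1 in WT colon. Among small intestinal specimens Col6a2 was at 25.6 and 17.3 in ApcMin KO ileum tumours, 31.6 and 26.3 in ApcMin WT ileum tumours, 24.6 and 12.5 in KO and 19.9 and 19.9 in ApcMin Het duodenal tumours, against 16.9 and 19.2 in KO and 26.9 and 26.9 in WT duodenum. Col6a3, the longest of the main chains, was less separated. It was at 6.98 and 7.86 FPKM in ApcMin KO, 7.38 and 7.98 in ApcMin WT, 4.04 and 4.22 in ApcMin Het and 11.5 in KO colon tumours, against 11.4 and 5.62 in KO and 8.67 and 9.36 in WT colon. Small intestinal Col6a3 was 6.35 and 4.01 in ApcMin KO ileum tumours, 7.41 and 5.87 in ApcMin WT ileum tumours, 6.41 and 2.78 in KO and 5.93 and 5 in ApcMin Het duodenal tumours, against 4.07 and 4.48 in KO and 6.68 and 6.4 in WT duodenum. It was called in none of the 13 comparisons, as were Col11a2 and Col13a1.

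The FACITs did not move as a class. Col12a1, which bridges type I fibrils and is known from tendon and tumour stroma, was at 7.34 and 6.58 FPKM in ApcMin KO, 12 and 13.5 in ApcMin WT, 7.84 and 8.02 in ApcMin Het and 22.1 in KO colon tumours, against 6.12 and 2.84 in KO and 4.24 and 4.57 in WT colon. In ileal and duodenal specimens it was at 7.14 and 4.37 in ApcMin KO ileum tumours, 7.21 and 5.74 in ApcMin WT ileum tumours, 4.82 and 3.09 in KO and 4.94 and 3.5 in ApcMin Het duodenal tumours, against 1.21 and 1.3 in KO and 2.17 and 2.23 in WT duodenum. Every colon tumour lay above every normal colon in Col12a1, and every small intestinal tumour above every normal duodenum. Col14a1, its close relative, was at 2.21 and 0.924 FPKM in ApcMin KO, 2.76 and 2.05 in ApcMin WT, 2.68 and 1.6 in ApcMin Het and 6.03 in KO colon tumours, against 5.97 and 3.25 in KO and 5.15 and 5.48 in WT colon. Along the small intestine Col14a1 was at 4.38 and 2.68 in ApcMin KO ileum tumours, 4.25 and 2.68 in ApcMin WT ileum tumours, 3.26 and 2.42 in KO and 4.72 and 2.8 in ApcMin Het duodenal tumours, against 3.41 and 4.33 in KO and 6.46 and 6.27 in WT duodenum. All ApcMin colon tumours lay below all normal colons in Col14a1. The type IX chains Col9a2 and Col9a3 are best known from cartilage. Col9a2 was at 0.0700 to 4.17 FPKM in the 15 tumours and 0.160 to 1.13 FPKM in the 8 normal specimens, with both KO duodenal tumours below all normal specimens. Col9a3 was at 26.3 and 19.2 FPKM in ApcMin KO and 15.1 and 10.9 in ApcMin WT ileum tumours and 4.93 and 0.515 and 18.5 and 7.67 in KO and ApcMin Het duodenal tumours, against 0.243 and 0.246 in KO and 0.179 and 0.505 in WT duodenum. In the colon Col9a3 was at 1.7 and 2.74 FPKM in ApcMin KO, 5.8 and 3.41 in ApcMin WT, 3.37 and 1.18 in ApcMin Het and 0.977 in KO tumours, against 0.17 and 0.0985 in KO and 0.065 and 0.175 in WT colon.

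Among transmembrane collagens, Col17a1, the hemidesmosomal collagen of stratified epithelia, was uneven within groups. It was at 1.34 and 0.0804 FPKM in ApcMin KO, 0.291 and 0.0143 in ApcMin WT, 0.367 and 0.73 in ApcMin Het and 1.3 in KO colon tumours, against 0.0539 and 0.16 in KO and 0.071 and 0.114 in WT colon. For the small intestine, it was at 0.025 and 0.14 in ApcMin KO ileum tumours, 0.0432 and 0.02 in ApcMin WT ileum tumours, 0.0607 and 0.0159 in KO and 0.057 and 0.0148 in ApcMin Het duodenal tumours, against 0.119 and 0.0568 in KO and 0.0665 and 0.0799 in WT duodenum. All small intestinal specimens lay below 1 FPKM.

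**Figure D3:**
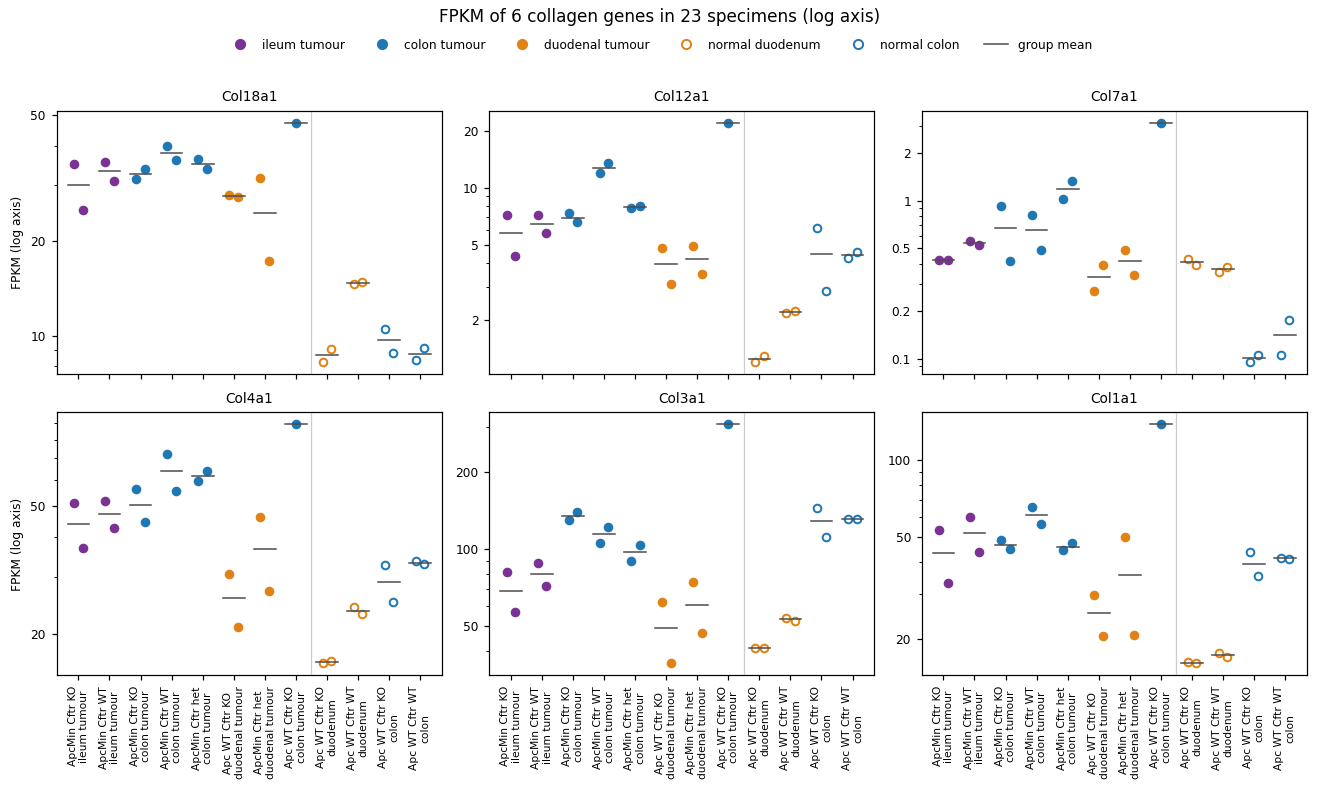
FPKM (log axis) of Col18a1, Col12a1, Col7a1, Col4a1, Col3a1 and Col1a1 in every specimen, tumour groups filled and on the left, normal groups open and on the right, bar at the group mean. Col18a1 was 17.3 to 47.4 FPKM in the 15 tumours and 8.28 to 14.8 FPKM in the 8 normal specimens, while Col3a1 of ApcMin colon tumours lay around normal colon.

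Across the 15 tumours and 8 normal specimens of all organs, 3 of the 29 tested collagens had values that did not overlap, and 3.54% of all genes tested did so. This count was chosen after the values were seen and is a description with no test. Col18a1 was at 17.3 to 47.4 FPKM in tumours (median 33.7) and 8.28 to 14.8 in normal specimens (median 9.15). Col9a3 was at 0.515 to 26.3 FPKM in tumours (median 4.93) and 0.0650 to 0.505 in normal specimens (median 0.177). Both were higher in tumours, as were 2.45% of all genes. Col8a2, a short-chain collagen of vessel walls and the corneal Descemet membrane, was the 1 gene lower in tumours, at 0.0256 to 0.385 FPKM (median 0.201) against 1.18 to 1.58 in normal specimens (median 1.40), and 1.09% of all genes were lower in this way. Col8a2 passed the filter only through the 8 normal specimens, so its gap is not independent of the filter.

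In the normal colon no difference between KO and WT mice in collagen expression passed the test. None of the 29 tested collagens was called (limma, adjusted p below 0.05, on log2 of FPKM plus 1), and 0% of all genes were. None had an unadjusted p below 0.05, where 948 of 14098 genes did. The smallest p belonged to Col16a1, a FACIT, at 7.39 and 6.87 FPKM in KO colon and 9.57 and 10.6 in WT colon (log2 difference -0.44, SE 0.21, adjusted p = 0.751). Its groups did not overlap, but the gene was picked by its p, so this adds no support. The median log2 difference was -0.054 over the collagens and 0.0027 over all genes.

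In the normal duodenum the collagens lay lower in KO than in WT mice, without passing the test. None of 29 was called and 0% of all genes were, 4 collagens had an unadjusted p below 0.05 against 368 of all genes, and the log2 difference was positive for 3. The median was -0.35 over the collagens and 0.0083 over all genes. Col13a1, a transmembrane collagen of adhesion sites, had the smallest p, at 1.09 and 0.871 FPKM in KO duodenum against 2.27 and 2.12 in WT duodenum (log2 difference -0.69, SE 0.16, adjusted p = 0.475). With the WT pair counted as 2 specimens in place of 1, Col13a1 was the 1 collagen called (adjusted p = 0.0437). Fibroblast markers summed to 209 and 212 FPKM in KO duodenum and 243 and 241 in WT duodenum (median log2 difference -0.17, 0 of 12 at an unadjusted p below 0.05). Endothelial markers summed to 73.1 and 76.04 FPKM in KO duodenum and 108 and 110.01 in WT duodenum (median -0.41, 6 of 10 at that p), and macrophage markers to 297 and 229.8 in KO duodenum and 333 and 329.8 in WT duodenum (median -0.45, 4 of 10). Adipocyte markers summed to 181 and 195 FPKM in KO duodenum and 365 and 352 in WT duodenum (median -1.91, 5 of 8). Among the other cell type lists, epithelial markers had 9 of 10 differences positive (median 0.17). Smooth muscle markers had 6 of 10 positive (median 0.061), and enteric neuron and glia markers 4 of 10 (median -0.084). No marker of these lists was called, and their part in the lower collagen values was not tested. The difference in the Cftr effect between duodenum and colon was called for no collagen and 0% of all genes (3 collagens at an unadjusted p below 0.05), with the smallest p for the type VI chain Col6a4 (log2 difference -1.09, SE 0.35, adjusted p = 1).

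In ApcMin colon tumours the Cftr genotype made no collagen difference that passed the test. None of 29 was called, and 0.0638% of all genes were (0.00709% higher, 0.0567% lower), while 5 collagens and 1708 of all genes had an unadjusted p below 0.05. The smallest p belonged to Col4a6, at 0.384 and 0.641 FPKM in ApcMin KO and 0.0471 and 0.209 FPKM in ApcMin WT colon tumours (log2 difference 0.42, SE 0.12, adjusted p = 0.219). The groups did not overlap, which adds no support in a gene picked by its p. The count was 1 without ApcMin KO colon tumour 2 and 3 without ApcMin WT colon tumour 2, and 0 without either other tumour. In ApcMin ileum tumours none was called either, and 0.121% of all genes were (0.0567% higher, 0.0638% lower). There 3 collagens and 825 of all genes had an unadjusted p below 0.05, and the smallest belonged to Col6a4, at 4.26 and 2.86 FPKM in ApcMin KO and 7.39 and 4.76 FPKM in ApcMin WT ileum tumours (log2 difference -0.63, SE 0.22, adjusted p = 0.544). The values of these tumours did not overlap, which again adds no support, as Col6a4 was picked by its p. The difference in the Cftr effect between ileum and colon tumours was called for no collagen and 0% of all genes (2 collagens at an unadjusted p below 0.05), with the smallest p for Col4a5 (log2 difference -0.97, SE 0.26, adjusted p = 0.935).

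In KO mice with wildtype Apc, duodenal tumours were compared with duodenum. Col18a1 and Col12a1 were higher and Col8a2 was lower, which made 3 of 29 called, near the share of all genes. Of all genes 8.16% were called (3.94% higher, 4.23% lower). Col18a1 was at 27.9 and 27.5 FPKM in KO duodenal tumours and 8.28 and 9.12 FPKM in KO duodenum (log2 difference 1.57, SE 0.22, adjusted p = 0.00106). Col12a1 was at 4.82 and 3.09 FPKM in KO duodenal tumours and 1.21 and 1.3 FPKM in KO duodenum (log2 difference 1.11, SE 0.27, adjusted p = 0.0243). Neither gene overlapped between the groups, and the mean FPKM of tumours was 3.18 times that of duodenum for Col18a1 and 3.15 times for Col12a1. Col8a2 was at 0.288 and 0.0256 FPKM in KO duodenal tumours and 1.22 and 1.58 FPKM in KO duodenum (log2 difference -1.06, SE 0.13, adjusted p = 0.000375). Both tumours lay below both normal specimens. Col12a1 was no longer called without tumour 1 (adjusted p = 0.143), without duodenum 1 (adjusted p = 0.127) or without duodenum 2 (adjusted p = 0.088). Smooth muscle markers summed to 609.5 and 133 FPKM in KO duodenal tumours and 898 and 892 FPKM in KO duodenum, with 0 of 10 markers called. Fibroblast markers summed to 250.3 and 154 FPKM in KO duodenal tumours and 209 and 212 FPKM in KO duodenum, with 1 of 12 called. Epithelial markers summed to 11817 and 14086 FPKM in KO duodenal tumours and 9161 and 9991 FPKM in KO duodenum, with Krt18 and Krt19 called higher among 10. Their part in the collagen values was not tested.

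The KO colon tumour, a single specimen of an Apc wildtype mouse, was collagen-rich. Against KO colon 17 of 29 collagens were called, 13 higher and 4 lower, where 12.8% of all genes were called (7.12% higher, 5.7% lower). The fibrillar class had 6 of 8 tested chains higher and none lower, type IV had 2 of 4 higher and 2 lower, and types XV, XVIII and VII were all higher. The median log2 difference was 0.46 over the collagens and -0.0049 over all genes. This tumour is assumed to vary like the other groups, since it has no replicate.

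By size of log2 difference Col18a1 led, at 47.4 FPKM in the KO colon tumour and 10.6 and 8.81 FPKM in KO colon (log2 difference 2.18, SE 0.27, adjusted p = 0.000538). Col12a1 was at 22.1 FPKM in the KO colon tumour and 6.12 and 2.84 FPKM in KO colon (log2 difference 2.14, SE 0.33, adjusted p = 0.0021). Both rose above the range of the normal pair. Col7a1 was at 3.13 FPKM in the KO colon tumour and 0.096 and 0.105 FPKM in KO colon (log2 difference 1.91, SE 0.18, adjusted p = 8.65e-05). Fibrillar chains followed. Col1a1 was at 138 FPKM in the KO colon tumour and 43.6 and 35.1 FPKM in KO colon (log2 difference 1.79, SE 0.4, adjusted p = 0.015). Col5a3, the third type V chain, was at 7.49 FPKM in the KO colon tumour and 2.03 and 1.23 FPKM in KO colon (log2 difference 1.71, SE 0.27, adjusted p = 0.00242). Col5a2 was at 40.4 FPKM in the KO colon tumour and 13.9 and 10.03 FPKM in KO colon (log2 difference 1.69, SE 0.37, adjusted p = 0.0126). In all of these the tumour exceeded both normal specimens. Without KO colon 2 the calls ended for Col1a1 (adjusted p = 0.0684) and Col5a2 (adjusted p = 0.0667).

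Lower in the KO colon tumour were Col4a5, Col4a6, Col8a2 and Col23a1. Col4a5 was at 1.41 FPKM in the KO colon tumour and 4.8 and 4.08 FPKM in KO colon (log2 difference -1.17, SE 0.22, adjusted p = 0.00715). Col4a6 was at 0.469 FPKM in the KO colon tumour and 1.73 and 1.43 FPKM in KO colon (log2 difference -0.81, SE 0.14, adjusted p = 0.00494). This X-linked pair was thus lower while Col4a1 and Col4a2 were higher. Col4a6 passed the filter only through the normal colons, so its calls against colon are not independent of the filter. Xist was below 1 FPKM in this tumour and in KO colon, and a link of Xist to these genes was not tested. Col8a2 was at 0.225 FPKM in the KO colon tumour and 1.26 and 1.18 FPKM in KO colon (log2 difference -0.86, SE 0.15, adjusted p = 0.00512). Col23a1, a transmembrane collagen, was at 1.46 FPKM in the KO colon tumour and 3.78 and 2.33 FPKM in KO colon (log2 difference -0.7, SE 0.2, adjusted p = 0.0372), and its call ended without KO colon 1 (adjusted p = 0.166). Fibroblast markers summed to 847 FPKM in the KO colon tumour and 474 and 405 FPKM in KO colon, with 3 of 12 higher and none lower. Of these 3, Thy1 had the smallest p and Dcn the largest log2 difference. Dcn, the fibril-binding proteoglycan decorin, was at 390.4 FPKM in the tumour and 120.3 and 111 FPKM in KO colon (log2 difference 1.75, SE 0.32, adjusted p = 0.00582). Smooth muscle markers summed to 1319 FPKM in the KO colon tumour and 3064 and 2428 FPKM in KO colon, with 1 of 10 lower. Endothelial markers had 7 of 10 higher and macrophage markers 5 of 10 higher. The part of these cell types in the collagen calls was not tested.

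In ApcMin WT colon tumours Col18a1 and the main type IV chains were higher, and the type III chain Col3a1 was not called. Against WT colon, on the libraries of the second sequencing run that both groups share, 17 of 29 collagens were called, 8 higher and 9 lower, where 38% of all genes were called (19.1% higher, 18.9% lower). The share of collagens is to be read against that background. Higher were Col9a3, Col18a1, Col12a1, Col4a1, Col6a4, Col4a2, Col5a2 and Col7a1.

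Col18a1 was at 39.8 and 36 FPKM in ApcMin WT colon tumours and 8.35 and 9.65 FPKM in WT colon (log2 difference 1.96, SE 0.15, adjusted p = 9.33e-05). Col4a1 was at 72.2 and 55.5 FPKM in ApcMin WT colon tumours and 35.1 and 35.3 FPKM in WT colon (log2 difference 0.83, SE 0.21, adjusted p = 0.0125). Col4a2 was at 44.5 and 35.6 FPKM in ApcMin WT colon tumours and 23.7 and 24.7 FPKM in WT colon (log2 difference 0.69, SE 0.22, adjusted p = 0.0276). In these basement membrane genes no tumour overlapped normal colon. Col12a1 was at 12 and 13.5 FPKM in ApcMin WT colon tumours and 4.26 and 5.08 FPKM in WT colon (log2 difference 1.28, SE 0.29, adjusted p = 0.00651). Col9a3 was at 5.8 and 3.41 FPKM in ApcMin WT colon tumours and 0.0507 and 0.158 FPKM in WT colon (log2 difference 2.31, SE 0.49, adjusted p = 0.00527). Col6a4 was at 4.45 and 4.03 FPKM in ApcMin WT colon tumours and 1.72 and 2.23 FPKM in WT colon (log2 difference 0.82, SE 0.25, adjusted p = 0.0257). None of these overlapped between the groups.

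Lower in ApcMin WT colon tumours, Col8a1, the other type VIII chain, was at 0.916 and 2.2 FPKM in the tumours and 10.2 and 9.58 FPKM in WT colon (log2 difference -2.14, SE 0.28, adjusted p = 0.000742). Col8a2 was at 0.11 and 0.199 FPKM in the tumours and 1.33 and 1.35 FPKM in WT colon (log2 difference -1.02, SE 0.13, adjusted p = 0.000798). Both short-chain genes thus fell. Col4a5 was at 0.642 and 1.12 FPKM in the tumours and 4.74 and 4.93 FPKM in WT colon (log2 difference -1.64, SE 0.22, adjusted p = 0.000778). Col4a6 was at 0.0471 and 0.209 FPKM in the tumours and 1.86 and 1.59 FPKM in WT colon (log2 difference -1.27, SE 0.13, adjusted p = 0.000342). Both lie on the X chromosome, and the tumours had Xist where WT colon did not, but a link was not tested. Col14a1 was at 2.76 and 2.05 FPKM in the tumours and 5.42 and 5.89 FPKM in WT colon (log2 difference -0.98, SE 0.3, adjusted p = 0.0271). Col16a1 was at 4.76 and 4.58 FPKM in the tumours and 9.04 and 10.8 FPKM in WT colon (log2 difference -0.94, SE 0.2, adjusted p = 0.00482). Col6a1, Col6a2 and Col23a1 were also lower. The count of calls was 9 without ApcMin WT colon tumour 1, without WT colon 1 or without WT colon 2. The calls of Col4a1, Col4a2 and Col6a4 ended in each of these, with adjusted p up to 0.0987, 0.171 and 0.13, and that of Col14a1 in all 4 with adjusted p up to 0.122. Smooth muscle markers summed to 127 and 996 FPKM in ApcMin WT colon tumours and 3055 and 2849 FPKM in WT colon, with 10 of 10 lower. The WT colon sums average both runs, while the calls are from the second. Enteric neuron and glia markers had 9 of 10 lower and adipocyte markers 7 of 8, and Sox10, Adipoq and Retn were listed at 0 in tumour 1. Fibroblast markers had 4 of 12 lower and 1 higher. Their part in the collagen calls was not tested.

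ApcMin KO colon tumours against KO colon, also on the second run, gave fewer calls. Col18a1 and Col7a1 were higher and 6 collagens were lower, which made 8 of 29, where 10.9% of all genes were called (5.26% higher, 5.62% lower). Col18a1 was at 31.4 and 33.8 FPKM in ApcMin KO colon tumours and 10.4 and 9.15 FPKM in KO colon (log2 difference 1.64, SE 0.15, adjusted p = 0.000473). Col7a1 was at 0.926 and 0.416 FPKM in ApcMin KO colon tumours and 0.0817 and 0.144 FPKM in KO colon (log2 difference 0.57, SE 0.16, adjusted p = 0.0431). Neither overlapped. Col8a1 was at 2.1 and 1.45 FPKM in ApcMin KO colon tumours and 11.7 and 6.4 FPKM in KO colon (log2 difference -1.82, SE 0.28, adjusted p = 0.00552). Col8a2 was at 0.235 and 0.0932 FPKM in ApcMin KO colon tumours and 1.23 and 1.1 FPKM in KO colon (log2 difference -0.9, SE 0.13, adjusted p = 0.00506). The short-chain pair was thus lower here as well. Col4a5 was at 1.41 and 2.35 FPKM in ApcMin KO colon tumours and 5.16 and 4.25 FPKM in KO colon (log2 difference -1.001, SE 0.22, adjusted p = 0.0188). Col4a6 was at 0.384 and 0.641 FPKM in ApcMin KO colon tumours and 1.8 and 1.5 FPKM in KO colon (log2 difference -0.81, SE 0.13, adjusted p = 0.00669). Again the tumours had Xist and the colons did not, and a link was not tested. Col14a1 was at 2.21 and 0.924 FPKM in ApcMin KO colon tumours and 6.22 and 3.48 FPKM in KO colon (log2 difference -1.19, SE 0.3, adjusted p = 0.032). Col23a1 was at 0.762 and 0.935 FPKM in ApcMin KO colon tumours and 3.85 and 2.31 FPKM in KO colon (log2 difference -1.12, SE 0.17, adjusted p = 0.00484).

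Without KO colon 1 this comparison gave 4 calls, those of Col4a5 (adjusted p = 0.126), Col4a6 (adjusted p = 0.0593), Col7a1 (adjusted p = 0.188) and Col14a1 (adjusted p = 0.207) being lost. Without ApcMin KO colon tumour 1 the calls of Col4a5 and Col7a1 ended (adjusted p = 0.0967 and adjusted p = 0.212), without tumour 2 that of Col14a1 (adjusted p = 0.175) and without KO colon 2 those of Col4a5 and Col7a1 (adjusted p = 0.0566 and adjusted p = 0.121). Smooth muscle markers summed to 616 and 239.7 FPKM in ApcMin KO colon tumours and 3064 and 2428 FPKM in KO colon, with 2 of 10 lower, and neuron and glia markers had 8 of 10 lower and 1 higher. The KO colon sums average both runs, while the calls are from the second. Fibroblast markers had 1 of 12 lower, adipocyte markers 1 of 8 and macrophage markers 2 of 10. Their part was not tested. The difference between the tumour effect in KO and in WT mice was called for no collagen and 0.00709% of all genes (2 collagens at an unadjusted p below 0.05), and the smallest p belonged to Col6a4 (log2 difference -0.94, SE 0.35, adjusted p = 0.537).

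ApcMin Het colon tumours were compared with WT colon on the first run, and share those colons with the ApcMin WT comparison. Here 18 of 29 collagens were called, 8 higher and 10 lower, where 47.2% of all genes were called (24.2% higher, 23% lower). Col18a1 was at 36.2 and 33.7 FPKM in ApcMin Het colon tumours and 8.4 and 8.71 FPKM in WT colon (log2 difference 1.91, SE 0.23, adjusted p = 0.000464). Col7a1 was at 1.03 and 1.34 FPKM in ApcMin Het colon tumours and 0.113 and 0.185 FPKM in WT colon (log2 difference 0.92, SE 0.11, adjusted p = 0.000474). The rise of both was larger than the spread of either group. Col4a1 was at 59.7 and 63.9 FPKM in ApcMin Het colon tumours and 32 and 30.8 FPKM in WT colon (log2 difference 0.95, SE 0.25, adjusted p = 0.0149). Col4a2 was at 38.8 and 39.97 FPKM in ApcMin Het colon tumours and 21.8 and 21.9 FPKM in WT colon (log2 difference 0.82, SE 0.25, adjusted p = 0.0261). These 4 basement membrane genes did not overlap between the groups. Col9a2 was at 2.91 and 3.25 FPKM in ApcMin Het colon tumours and 0.744 and 1.18 FPKM in WT colon (log2 difference 1.06, SE 0.24, adjusted p = 0.00685). Col12a1 was at 7.84 and 8.02 FPKM in ApcMin Het colon tumours and 4.23 and 4.07 FPKM in WT colon (log2 difference 0.79, SE 0.28, adjusted p = 0.0428). Neither FACIT overlapped between the groups. Col5a3 and Col17a1 were also higher.

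Lower in ApcMin Het colon tumours, Col8a1 was at 1.68 and 1.68 FPKM in the tumours and 8.83 and 7.77 FPKM in WT colon (log2 difference -1.79, SE 0.22, adjusted p = 0.000523). Col8a2 was at 0.109 and 0.193 FPKM in the tumours and 1.6 and 1.43 FPKM in WT colon (log2 difference -1.13, SE 0.14, adjusted p = 0.00048). Col4a5 was at 0.52 and 0.624 FPKM in the tumours and 4.3 and 4.29 FPKM in WT colon (log2 difference -1.75, SE 0.13, adjusted p = 7.21e-05). These genes showed little spread within the groups. Col4a6 was at 0.0931 and 0.0664 FPKM in the tumours and 1.72 and 1.53 FPKM in WT colon (log2 difference -1.28, SE 0.11, adjusted p = 0.000121). Col14a1 was at 2.68 and 1.6 FPKM in the tumours and 4.88 and 5.07 FPKM in WT colon (log2 difference -0.95, SE 0.3, adjusted p = 0.0301). Col16a1 was at 5.04 and 4.83 FPKM in the tumours and 10.1 and 10.3 FPKM in WT colon (log2 difference -0.91, SE 0.19, adjusted p = 0.00511). Col6a1, Col6a2, Col15a1 and Col27a1 were also lower. Leaving out a specimen left 10 calls (without tumour 1), 9 (without tumour 2), 10 (without WT colon 1) or 8 (without WT colon 2). The calls of Col4a1, Col4a2 and Col12a1 ended in each, with adjusted p up to 0.0753, 0.103 and 0.141, and that of Col14a1 without tumour 2, WT colon 1 or WT colon 2, with adjusted p up to 0.177. The first-run library of WT colon 2 stood apart from its own second-run library, by an SD over genes of 0.458 on the log2 scale where the other 10 repeated specimens had 0.139 to 0.210, and in collagens the 2 libraries differed by at most 0.271. Smooth muscle markers summed to 575 and 769.9 FPKM in ApcMin Het colon tumours and 3055 and 2849 FPKM in WT colon, with 9 of 10 lower, and fibroblast markers had 6 of 12 lower and 1 higher. The WT colon sums average both runs, while the calls are from the first. Enteric neuron and glia markers had 9 of 10 lower, adipocyte markers 6 of 8 and macrophage markers 4 of 10. Their part was not tested.

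Over these comparisons the calls of Col18a1 (5 comparisons), Col8a2 (5) and Col8a1 (3 tumour comparisons) held under every alternative processing and with any 1 specimen left out. The tumour comparisons share their normal colons in pairs, so they are not independent of each other. Col8a2 entered the tests only through normal specimens, where it was high, so its calls are not independent of the filter.

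**Figure D4:**
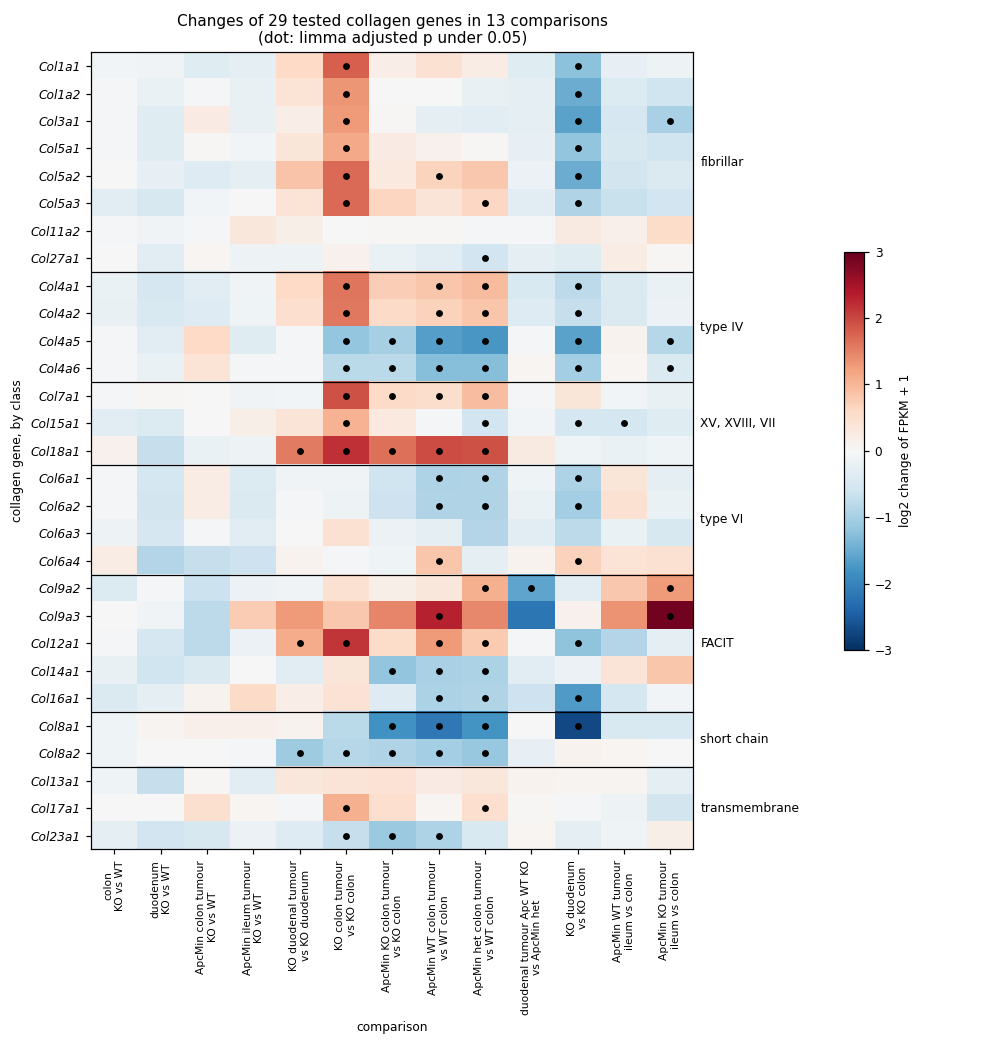
Log2 differences (on log2 of FPKM plus 1) of the 29 tested collagens in the 13 comparisons, the first-named group relative to the second, with a dot where the adjusted p was below 0.05. Col18a1 was called higher in 5 comparisons, Col4a5 and Col4a6 lower in 6 each, and none of the 4 comparisons of KO with WT specimens holds a dot.

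Tumours of different origin were also compared. KO duodenal tumours with wildtype Apc differed from ApcMin Het duodenal tumours in 1 of 29 collagens on the first run, where 1.32% of all genes were called (0.454% higher, 0.865% lower). Col9a2 was at 0.161 and 0.107 FPKM in KO duodenal tumours and 3.51 and 1.54 FPKM in ApcMin Het duodenal tumours (log2 difference -1.58, SE 0.24, adjusted p = 0.0254), without overlap. Its partner Col9a3 did not pass, at 4.65 and 0.482 FPKM in KO and 18.5 and 7.67 FPKM in ApcMin Het duodenal tumours (log2 difference -2.17, SE 0.61, adjusted p = 0.126). Without KO duodenal tumour 2 the call of Col9a2 ended (adjusted p = 0.159) and the count was 0, while it was 4 without KO duodenal tumour 1 and 2 without ApcMin Het duodenal tumour 1. Tumour 1 of the KO pair had Xist and tumour 2 did not.

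Ileum tumours of ApcMin mice were compared with colon tumours of the same mouse, so that each comparison rests on 4 tumours of 1 animal. In the ApcMin WT mouse 1 of 29 collagens was called, where 11.7% of all genes were (7.05% higher, 4.7% lower). Col15a1 was at 5.23 and 4.89 FPKM in ApcMin WT ileum tumours and 8.83 and 6.76 FPKM in ApcMin WT colon tumours (log2 difference -0.53, SE 0.16, adjusted p = 0.0493), and the call ended without ileum tumour 1 (adjusted p = 0.115), ileum tumour 2 (adjusted p = 0.23) or colon tumour 1 (adjusted p = 0.237). The count was 2 without colon tumour 2. In the ApcMin KO mouse 5 of 29 were called, 2 higher and 3 lower in ileum tumours, where 13.4% of all genes were (7.17% higher, 6.21% lower). The type IX chains were higher in the ileum. Col9a3 was at 26.3 and 19.2 FPKM in ApcMin KO ileum tumours and 1.7 and 2.74 FPKM in ApcMin KO colon tumours (log2 difference 2.89, SE 0.54, adjusted p = 0.00406). Col9a2 was at 3.52 and 2.51 FPKM in ApcMin KO ileum tumours and 0.988 and 0.371 FPKM in ApcMin KO colon tumours (log2 difference 1.27, SE 0.36, adjusted p = 0.0339). Neither overlapped. Col3a1 was at 81.2 and 56.7 FPKM in ApcMin KO ileum tumours and 130.3 and 139.6 FPKM in ApcMin KO colon tumours (log2 difference -0.98, SE 0.26, adjusted p = 0.0269). Col4a5 was at 0.648 and 0.477 FPKM in ApcMin KO ileum tumours and 1.41 and 2.35 FPKM in ApcMin KO colon tumours (log2 difference -0.86, SE 0.18, adjusted p = 0.00807). Col4a6 was at 0.152 and 0.0874 FPKM in ApcMin KO ileum tumours and 0.384 and 0.641 FPKM in ApcMin KO colon tumours (log2 difference -0.43, SE 0.12, adjusted p = 0.0301). All of these were lower in the ileum without overlap. Col9a3 alone kept its call with any 1 specimen left out. The other 4 lost theirs in at least 1 such fit, with adjusted p up to 0.195 for Col9a2 (without ileum tumour 1), 0.227 for Col3a1 (without ileum tumour 2), 0.0761 for Col4a5 and 0.196 for Col4a6 (both without colon tumour 2), and the count was 3 without ileum tumour 1 or colon tumour 1, 1 without ileum tumour 2 and 2 without colon tumour 2. Postn, periostin, a fibroblast marker that binds collagen, was at 11.1 and 11.9 FPKM in ApcMin KO ileum tumours and 51.5 and 79.1 FPKM in ApcMin KO colon tumours (log2 difference -2.37, SE 0.36, adjusted p = 0.00114). It was the 1 fibroblast marker of 12 called there, 3 of them had a positive difference, and the median over the list was -0.26.

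**Figure D5:**
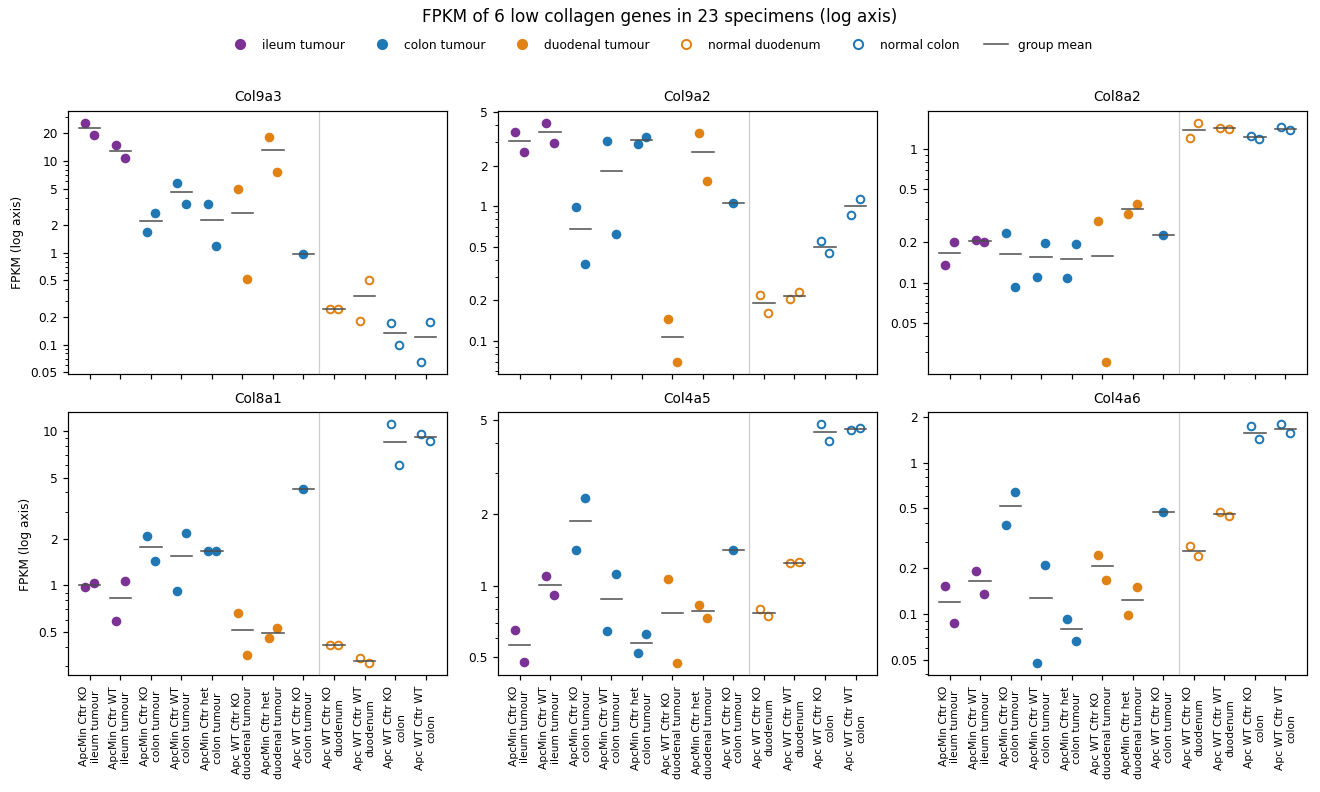
FPKM (log axis) of Col9a3, Col9a2, Col8a2, Col8a1, Col4a5 and Col4a6 in every specimen, tumours filled and on the left, normal tissue open and on the right, bar at the group mean. Col9a3 was 0.515 to 26.3 FPKM in tumours and 0.0650 to 0.505 FPKM in normal specimens, and Col4a5, Col4a6 and Col8a1 were highest in normal colon.

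Between the normal organs the collagens separated widely. In KO duodenum against KO colon of the same mice 17 of 29 collagens were called, 1 higher and 16 lower in duodenum, where 45.7% of all genes were called, 23.3% higher and 22.3% lower. The median log2 difference was -0.77 over the collagens and 0.016 over all genes. Fibrillar chains had 6 of 8 lower, type IV 4 of 4 lower, type VI 1 higher and 2 lower, and none of these classes had another called member. Col8a1 was at 0.41 and 0.41 FPKM in KO duodenum and 11 and 6.05 FPKM in KO colon (log2 difference -2.71, SE 0.26, adjusted p = 4.8e-06). Col16a1 was at 1.52 and 1.47 FPKM in KO duodenum and 7.39 and 6.87 FPKM in KO colon (log2 difference -1.7, SE 0.21, adjusted p = 3.6e-05). Col4a5 was at 0.799 and 0.744 FPKM in KO duodenum and 4.8 and 4.08 FPKM in KO colon (log2 difference -1.61, SE 0.18, adjusted p = 1.89e-05). These non-fibrillar genes were lower in both duodena. Col3a1 was at 41.3 and 41 FPKM in KO duodenum and 146 and 111 FPKM in KO colon (log2 difference -1.61, SE 0.26, adjusted p = 0.000341). Col1a2 was at 18.9 and 18.2 FPKM in KO duodenum and 60.3 and 47.7 FPKM in KO colon (log2 difference -1.48, SE 0.23, adjusted p = 0.000242). Col5a2 was at 3.49 and 3.67 FPKM in KO duodenum and 13.9 and 10.03 FPKM in KO colon (log2 difference -1.49, SE 0.3, adjusted p = 0.00146). The fibrillar genes did not overlap either. Col6a4 was the 1 gene higher in duodenum, at 5 and 4.24 FPKM in KO duodenum and 3.2 and 1.88 FPKM in KO colon (log2 difference 0.69, SE 0.22, adjusted p = 0.0224), and its call ended without duodenum 1 (adjusted p = 0.123) or colon 2 (adjusted p = 0.205). The count was 11 without duodenum 1 and 10 without colon 1. Smooth muscle markers summed to 898 and 892 FPKM in KO duodenum and 3064 and 2428 FPKM in KO colon, with 3 of 10 lower, and fibroblast markers to 209 and 212 FPKM in KO duodenum and 474 and 405 FPKM in KO colon, with 9 of 12 lower and 1 higher. Enteric neuron and glia markers had 7 of 10 lower, epithelial markers 4 of 10 lower and 1 higher, and macrophage markers 3 of 10 lower. Their part was not tested, and the labels give the organs different dissections, which cannot be told apart from the organ.

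Genes that process, bind or border collagen were followed as lists. Of 24 tested processing and crosslinking genes, 10 were higher and 1 lower in the KO colon tumour against KO colon, where 7.12% of all genes were higher and 5.7% lower. In ApcMin WT colon tumours against WT colon 8 were higher and 5 lower (19.1% and 18.9% of all genes), and in ApcMin KO colon tumours against KO colon 2 and 3 (5.26% and 5.62%). In ApcMin Het colon tumours against WT colon 6 were higher and 6 lower, close to the shares of all genes (24.2% and 23%), and in KO duodenal tumours against KO duodenum 1 was higher and none lower (3.94% and 4.23%). Lox, lysyl oxidase, which starts the crosslinking of fibrils, was higher in all 4 colon comparisons. Lox was at 16.1 FPKM in the KO colon tumour and 1.72 and 0.973 FPKM in KO colon (log2 difference 2.88, SE 0.28, adjusted p = 0.000108). It was at 11.7 and 8.7 FPKM in ApcMin WT colon tumours and 1.94 and 1.62 FPKM in WT colon (log2 difference 1.997, SE 0.21, adjusted p = 0.000347), and at 5.06 and 4.22 FPKM in ApcMin KO colon tumours and 1.95 and 0.992 FPKM in KO colon (log2 difference 1.21, SE 0.21, adjusted p = 0.00762). In ApcMin Het colon tumours it was at 12.3 and 12.4 FPKM, against 1.62 and 1.55 FPKM in first-run WT colon (log2 difference 2.37, SE 0.23, adjusted p = 0.000194). No tumour overlapped its control in Lox. Pcolce, an enhancer of procollagen cleavage, was lower in the 3 ApcMin comparisons, for example at 10.2 and 13.6 FPKM in ApcMin WT colon tumours and 23.6 and 22.7 FPKM in WT colon (log2 difference -0.92, SE 0.15, adjusted p = 0.00169). In KO duodenum against KO colon 19 processing genes were lower and 1 was higher, the protein disulphide isomerase P4hb, a subunit of prolyl 4-hydroxylase, at 1466 and 1429 FPKM in KO duodenum and 372 and 364 FPKM in KO colon (log2 difference 1.97, SE 0.18, adjusted p = 3.47e-06).

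Basement membrane glycoproteins, the laminins, nidogens, perlecan and agrin, summed to 186 to 308 FPKM in colon tumours, 189 to 262 in ileum tumours and 143 to 188 in duodenal tumours, against 127 to 151 in colon and 81.1 to 99 in duodenum. Tumours and normal tissue did not overlap in colon or in duodenum, and ileum had no normal specimen. Of 14 tested, 4 were higher and none lower in KO duodenal tumours, 6 and none in the KO colon tumour, 5 and none in ApcMin WT, 3 and none in ApcMin KO, and 5 and 1 in ApcMin Het colon tumours, each against its normal tissue, to be read against the same shares of all genes. Of 7 tested collagen receptors, 2 were higher and none lower in KO duodenal tumours and in the KO colon tumour, 4 higher and 2 lower in ApcMin WT, none higher and 1 lower in ApcMin KO, and 2 higher and 2 lower in ApcMin Het colon tumours, the last close to the 24.2% and 23% of all genes. The other receptor counts are likewise to be read against the shares of all genes given above for each comparison. Ddr2, the receptor kinase for fibrillar collagen, was at 3.07 and 5.15 FPKM in ApcMin WT colon tumours and 7.2 and 8.62 FPKM in WT colon (log2 difference -0.83, SE 0.22, adjusted p = 0.0135). Itga2, the integrin chain that binds type I collagen, was at 13.9 and 19.5 FPKM in ApcMin WT colon tumours and 7.05 and 5.65 FPKM in WT colon (log2 difference 1.26, SE 0.3, adjusted p = 0.00846). In the 4 comparisons of KO with WT specimens no gene of any of the 10 lists was called.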

How the data were processed

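Polyadenylated RNA was sequenced from 23 mouse intestinal specimens as 68 libraries, with RIN above 8 per the labels' protocols. Per the submitters' processing notes reads were checked with FastQC and aligned to mm10 with TopHat2 2.0.13, and the authors deposited FPKM from Cuffnorm. No counts were given, so read depth is unknown. Lane columns were averaged per specimen, and per run where a comparison needed specimens of 1 run. Genes were kept if 2 specimens or more reached 1 FPKM (14098 of 23356). Log2(FPKM + 1) was fitted over all groups with limma 3.58.1 (R 4.3.3, trended variance, two-sided), with Benjamini-Hochberg adjustment over all genes and a threshold of 0.05. Fold changes on this scale understate the change of low genes. Exact permutation of 2 against 2 specimens cannot go below p = 0.333 and was not used.

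Of the 23 specimens 11 were in both runs and 12 in 1. The WT duodenal pair differed as little as its lanes (ratio of the spread between specimens to that expected from lanes 0.911 in run 1 and 1.10 in run 2, against 2.02 to 6.02 in other groups) and was counted as 1 sample. KO duodenum and KO colon came from the same animals, and their deviations correlated by 0.0332 over genes. Members and lists were chosen with earlier results of these data known. All members past the threshold are named with their tests where there are 10 or fewer, otherwise the 6 largest differences in each direction, and the member with the smallest p where none passed. From each other list the up to 3 called genes with the smallest p could be named. The settings varied were the pseudocount (0.1), the filter (none), quantile normalization, a replicate block, the use of single runs and the omission of each specimen in turn. Promoters were read with Python 3.11.15, positions from GENCODE vM21. The fits were tested on simulated data.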

Additional observations from a re-analysis of the deposited data

How the results depend on the processing

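No call reversed its direction. Of the 59 named collagen calls, 36 kept their call under every alternative, and all of the losses included 1 left-out specimen among their settings. Some calls also ended with all specimens kept. Col12a1 of ApcMin Het colon tumours did so with a pseudocount of 0.1, without the filter and with the replicate block (limma, adjusted p = 0.0532, 0.0702 and 0.0632). In ApcMin KO colon tumours Col7a1 ended with quantile normalization (adjusted p = 0.0647) and Col4a5 with a pseudocount of 0.1 (adjusted p = 0.0602). Counts of called collagens in alternative fits, here, above and below, are given without the share of all genes called in the same fit. They do not show whether collagens lost or gained calls more than other genes did. These counts moved by more than 1.5 times as follows, and the cause was not tested unless stated. Duodenum KO against WT gave 1 call with WT duodenum as 2 specimens (0 otherwise). ApcMin Het colon tumours gave 8 without the first-run library of WT colon 2 (18 otherwise), which leaves 1 control. KO against ApcMin Het duodenal tumours gave 3 with the replicate block and 0 with specimens averaged over runs (1 otherwise). ApcMin WT ileum against colon tumours gave 0 with a pseudocount of 0.1 and 3 with quantile normalization (1 otherwise). Leaving out 1 specimen gave 0 to 3 calls for ApcMin colon tumours KO against WT, 9 to 18 for ApcMin WT, 4 to 8 for ApcMin KO and 8 to 10 for ApcMin Het colon tumours, 0 to 4 for KO against ApcMin Het duodenal tumours, 10 to 19 for KO duodenum against colon, and 0 to 2 and 1 to 3 for ApcMin WT and ApcMin KO ileum against colon tumours, with fewer specimens in each fit.

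With the replicate number as a block, KO duodenum against KO colon, where each number is 1 animal, gave 17 calls as without it. In ApcMin ileum against colon tumours all 4 tumours came from 1 animal, so that the number pairs no animals, and the block gave 5 calls for ApcMin KO and 1 for ApcMin WT, as without it. Elsewhere the samples share only a number, and the block gave 17, 9 and 15 calls for ApcMin WT, ApcMin KO and ApcMin Het colon tumours, 3 for KO duodenal tumours and 0 for the KO against WT comparisons it could be fitted to. No block could be fitted for duodenum KO against WT or the KO colon tumour. Arms of 1 specimen are assumed to vary like the other groups.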
